A study of Salmo salar with 6 samples.

Results

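The cell cycle and DNA replication genes on the array were taken by symbol: mini-chromosome maintenance (mcm) genes, origin recognition (orc), cdc, cdk, cyclin, polymerase, rfc, gins, cenp, kinetochore, checkpoint, anaphase-promoting complex (anapc), condensin, smc and e2f symbols, leaving out cdc37 and cdc42. This rule found 106 genes, each with 1 probe, among 42386 non-control probes, and 95 of the 106 passed a filter that asked for a signal well over background on 3 or more of the 6 arrays. Head kidney (HK) RNA of Atlantic salmon was hybridized to 6 one-color Agilent arrays, of which 3 held pools of the AQUOLIVE® diet and 3 held pools of the control diet. AQUOLIVE® is an olive fruit extract with triterpenic acid and polyphenols, included at 0.15% of the diet for 133 days, and the control diet was the same basal diet with none. Each pool joined RNA of 6 fish, 1 fish from every tank of a diet, for 18 fish a diet in all, so p-values measure the spread between pools and say nothing of single fish or tanks.

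A cell that divides first loads the MCM helicase onto origins marked by the origin recognition complex, then fires those origins with CDC45, GINS and the DNA polymerases, and later separates its chromosomes under control of mitotic cyclins, the kinetochore and the anaphase-promoting complex (APC/C). Cyclin-dependent kinases (CDKs) order these steps, and many of the genes are transcribed mainly in cycling cells. The HK is the blood-forming organ of bony fish, where erythroid, myeloid and lymphoid precursors divide.

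The arrays differed in quality before any comparison of diets. Between 54.2% and 76% of all probes were well above background in the AQUOLIVE® pools and between 42.5% and 61% in the control pools, with control pool 3 lowest. Among the 106 genes the share was 84% to 96.2% in AQUOLIVE® pools and 81.1% to 91.5% in control pools. Added control RNAs of known amount gave a slope of log signal on log amount of 1.07 ± 0.0181 in AQUOLIVE® arrays and 0.854 ± 0.0401 in control arrays (SD, n = 3 each). Each array lies on its own slide and the control arrays were scanned before the AQUOLIVE® arrays, so scan order, this slope and diet cannot be told apart.

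Signals were uneven over the surface of 4 of the 6 arrays. The arrays have 532 rows and 85 columns of spots, and were split here into 642 blocks of 14 rows by 5 columns. In 14 adjoining blocks at the center of the array (rows 239 to 308, columns 36 to 50) the median signal was low on AQUOLIVE® pools 1 and 3, reaching -4.83 and -5.5 on the log2 scale relative to the probes' medians over arrays. The lowest of these blocks was at -0.0506 on AQUOLIVE® pool 2 and at -0.0825, -0.787 and -0.133 on control pools 1, 2 and 3. These blocks hold 446 of the 25826 kept probes and 2 of the 95 kept members, rfc2 and cdk9. Of the 144 probes that were at least 2 log2 units lower on both of these arrays than on each of the other 4, 142 lie in these blocks. AQUOLIVE® pool 3 also had 6 high blocks, up to 2.47, and control pool 3 had 8 low and 15 high blocks, between -1.33 and 1.48. Control pool 2 had 2 low blocks, and AQUOLIVE® pool 2 and control pool 1 had 0. Results were therefore also computed with the spots of such blocks (0.75 log2 or more from 0) left out on the array concerned, and with each block's median subtracted; both were chosen after the data were seen.

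**Figure D1:**
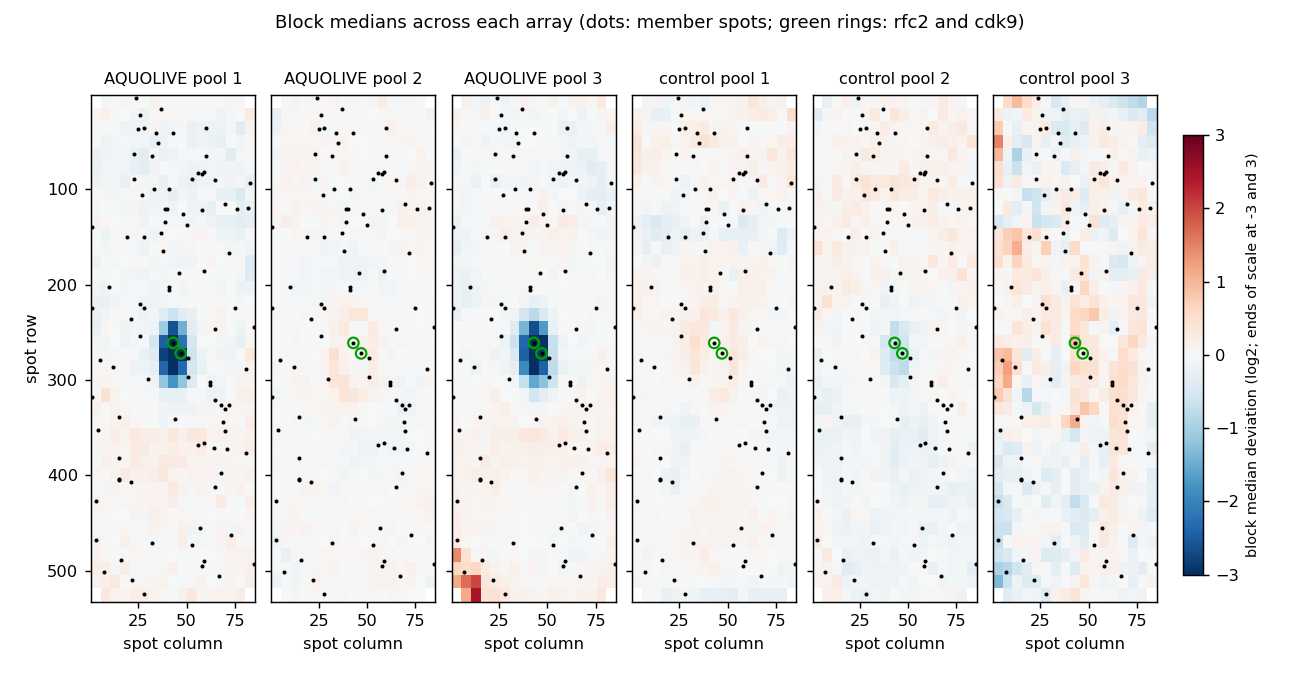
Median log2 deviation of each block of spots (color, blue low and red high) over the spot rows (vertical axis) and spot columns (horizontal axis) of the 6 arrays, the AQUOLIVE® pools at the left and the control pools at the right. Dots are spots of the 95 kept genes and green rings mark rfc2 and cdk9, which lie in the low center of AQUOLIVE® pools 1 and 3, where block medians reach -4.83 and -5.5.

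The cell cycle and DNA replication genes as a group were slightly lower in fish fed the AQUOLIVE® diet, and no single gene passed the test. Of the 95 genes, 34 had a positive and 61 a negative log2 FC (AQUOLIVE® minus control), with a median of -0.18, against -0.02 over all 25826 probes. With limma and Benjamini-Hochberg adjustment over all probes 0 of the 95 genes passed an adjusted p of 0.05, where 4 of all probes did (0.0155%), and the smallest adjusted p was 0.164 (gins3). At an unadjusted p under 0.05, 6 genes were higher, against 9.56% of all probes, and 11 were lower, against 8.59% of all probes. Together these are 17.9% of the genes and 18.2% of the probes, so at that threshold the genes were called about as often as the rest of the array. The 11 lower genes included rfc2, in the low center, and bub3, next to it. They also included cdc14ab and mad2l2, each well above background on only 1 AQUOLIVE® and 2 control arrays. The unpaired test named in the methods gave 15 of the genes at an unadjusted p under 0.05, against 15.8% of all probes, and 0 of all probes after Benjamini-Hochberg adjustment.

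The direction stood out more than the tests did. Among the 92 genes with a value on all 6 arrays, every AQUOLIVE® pool lay below every control pool for 28 (30.4%), against 15% of all probes. The opposite order was found for 9 (9.78%), against 14.7% of all probes. For a single gene such an order gives p = 0.1 in an exact two-sided permutation test over the pools, the smallest that 3 against 3 pools allow. The share of genes lower without overlap was 32.2% (all probes 15.5%) with the uneven blocks left out and 26.1% (all probes 15.3%) with block medians subtracted. It was 10.9% (all probes 9.15%) after normexp background correction, and 6.67% (all probes 6.49%) with the deposited log2 values centered on each array's median. The share of genes lower without overlap thus exceeded that of all probes under loess, 75th percentile and quantile scaling and was near it under these 2 settings. The share higher without overlap was 9.2% (all probes 15%) with the uneven blocks left out and 14.1% (all probes 15.6%) with block medians subtracted. It was 7.61% (all probes 10.3%) after normexp and 8.89% (all probes 11.1%) with the deposited values. With the deposited values 8 genes were thus higher without overlap and 6 lower. Counted by sign alone, 63.2% of the genes were lower with the deposited values, against 49.5% of all probes, and 58.9% with normexp, against 51.2%. With block medians subtracted 27 of the 37 genes without overlap kept their order and 10 overlapped. Of those 10, ccne1 and smc6 had been higher, and orc2, orc6, cdc45, pole2, ccnb3, cdc20, cenpi and ncapg2 lower. Another 10 no longer overlapped, with aurka, ccnb1, top2a, cenph, cdc73 and cdk12 higher and pold2, bub1, bub3 and cdk7 lower.

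**Figure D2:**
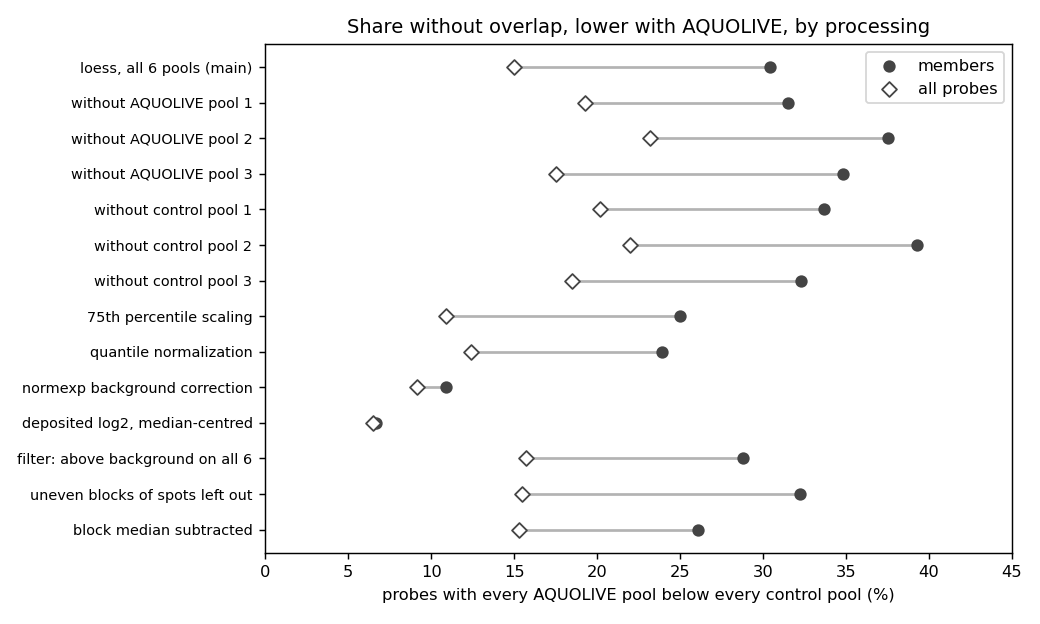
Percent of genes (filled circles) and of all probes (open diamonds) for which every AQUOLIVE® pool lay below every control pool, on the horizontal axis, for each processing or left-out pool down the page. The members are at 30.4% with all 6 pools and loess, and at 6.67% with the deposited values, where all probes are at 6.49%.

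The pools of a diet did not contribute equally. The median deviation of the 92 genes from each gene's own mean was -0.13, -0.04 and -0.03 in AQUOLIVE® pools 1, 2 and 3, and 0.06, 0.01 and 0.18 in control pools 1, 2 and 3. Control pool 3 held the highest of the 6 values for 44.6% of the genes (30.2% of all probes), and AQUOLIVE® pool 1 the lowest for 35.9% (21.3% of all probes). Without control pool 3 the median log2 FC was -0.08, while every remaining AQUOLIVE® pool lay below both remaining control pools for 32.3% of the genes and 18.5% of all probes. The pools of the control diet were also further apart, with a median SD of 0.15 log2 units in AQUOLIVE® pools and 0.37 in control pools over the genes (0.24 and 0.45 over all probes).

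**Figure D3:**
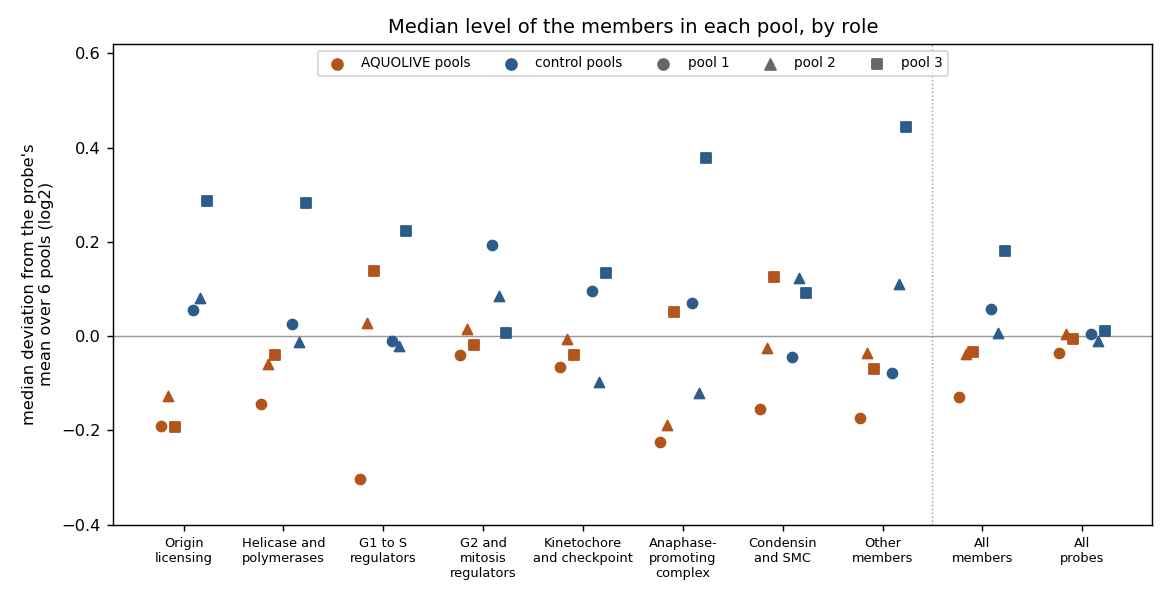
Median deviation (log2, vertical axis) of the genes of each role, of the 92 genes and of all probes in each pool, AQUOLIVE® pools in orange left of control pools in blue. Control pool 3 (blue square) is the highest point for the genes as a whole at 0.18 and AQUOLIVE® pool 1 (orange circle) the lowest at -0.13, while all probes lie near 0.

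Origin licensing genes had the lowest median of the roles. The log2 FC was negative in 7 of the 8 kept genes, with a median of -0.40, and 4 of the 8 were lower without overlap, against 15% of all probes. The median was -0.30 with the uneven blocks left out, still the lowest, and -0.21 with block medians subtracted. It was then no longer the lowest, since the S phase entry genes were at -0.36 and the members outside the core roles at -0.26, and the anaphase-promoting complex was at -0.21 as well. Of the origin recognition complex, which marks replication origins, orc2 had log2 signals of 10.40, 10.64 and 10.57 in AQUOLIVE® pools and 11.26, 10.87 and 11.95 in control pools. The 3 AQUOLIVE® pools lay close together below the control pools, and control pool 3 was highest (log2 FC -0.83 ± 0.32 SE, limma adjusted p = 0.256). The log2 FC of orc2 was -0.52 without control pool 3 and -0.45 with block medians subtracted, when control pool 2 lay below the AQUOLIVE® pools. For orc6, another subunit, the values were 10.56, 10.35 and 10.25 in AQUOLIVE® pools and 11.02, 10.72 and 10.82 in control pools (log2 FC -0.47, adjusted p = 0.294 in limma). These values also did not overlap, and here control pool 3 was not the highest. With block medians subtracted control pool 2 of orc6 (10.64) lay below AQUOLIVE® pool 1 (10.75). Of the licensing genes only mcm4 and orc3 were then lower without overlap. orc3 had a log2 FC of -0.46 and orc5 of -0.53, but the orc5 difference came to -0.02 with the spot of control pool 3, which lies in a high block, left out.

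The MCM helicase subunits, which are loaded as 1 complex of different subunits, were split. Values of mcm4 were 11.67, 11.75 and 11.84 in AQUOLIVE® pools and 12.00, 11.99 and 12.30 in control pools, without overlap (log2 FC -0.34, adjusted p = 0.391 in limma). In mcm3 and mcm7 the log2 FC was -0.24 and -0.15 and the pools overlapped. mcm2 ran the other way, with 11.02, 10.85 and 11.15 in AQUOLIVE® pools and 10.01, 10.97 and 9.65 in control pools. Its AQUOLIVE® pools were close together, while control pool 2 lay among them and control pools 1 and 3 were low (log2 FC 0.80 ± 0.37 SE, limma adjusted p = 0.31, and 0.50 without control pool 3). mcm6l was not above background on any array, and mcm3l was on 1 AQUOLIVE® array alone.

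The helicase activation and polymerase genes included the highest log2 FC of the set. gins3, a subunit of the GINS complex that activates the MCM helicase, had 12.37, 11.15 and 11.68 in AQUOLIVE® pools and 10.31, 10.35 and 9.10 in control pools. The lowest AQUOLIVE® pool was 0.80 log2 units above the highest control pool, and control pool 3 was lowest of all (log2 FC 1.81 ± 0.47 SE, limma adjusted p = 0.164). Its spot lies in row 501, column 7, in a block with a median of 0.535 on AQUOLIVE® pool 3 and -0.862 on control pool 3. The log2 FC was 1.39 with the spot of control pool 3 left out and 1.30 with block medians subtracted (adjusted p = 0.196 and 0.142 in limma), and the pools did not overlap after that subtraction. The other GINS genes measured, gins1 and gins4, had a log2 FC of -0.02 and -0.09.

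pola1, the catalytic subunit of the polymerase that starts each new DNA strand together with primase, had 9.08, 9.44 and 9.22 in AQUOLIVE® pools and 10.14, 10.01 and 10.88 in control pools. The groups were 0.58 log2 units apart at their nearest pools (log2 FC -1.10 ± 0.29 SE, limma adjusted p = 0.171), and the difference was -1.19 with block medians subtracted. Its partner subunit pola2 had a log2 FC of -0.49 and also did not overlap. Of the leading strand polymerase, pole2 was lower without overlap at -0.57, while its small histone-fold subunits pole3 and pole4 had 0.26 and 0.01. cdc45, the third part of the active helicase beside MCM and GINS, had 7.70, 7.97 and 8.15 in AQUOLIVE® pools and 8.27, 8.21 and 8.91 in control pools (log2 FC -0.52, adjusted p = 0.35 in limma). The separation was narrow, and without control pool 3 the difference was -0.28.

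Over the 19 genes of this role 6 were positive and 13 negative with a median of -0.20. The brightest, mcm10 (an origin firing factor) and top2a (the topoisomerase that untangles sister DNA), had log2 FC of -0.23 and -0.10 with overlapping pools. The sign of top2a turned to 0.02 under quantile normalization and 0.25 with block medians subtracted, when it was higher without overlap. mcm8, a relative of the MCM genes that acts in DNA repair, was higher without overlap (log2 FC 0.70, adjusted p = 0.264 in limma).

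**Figure D4:**
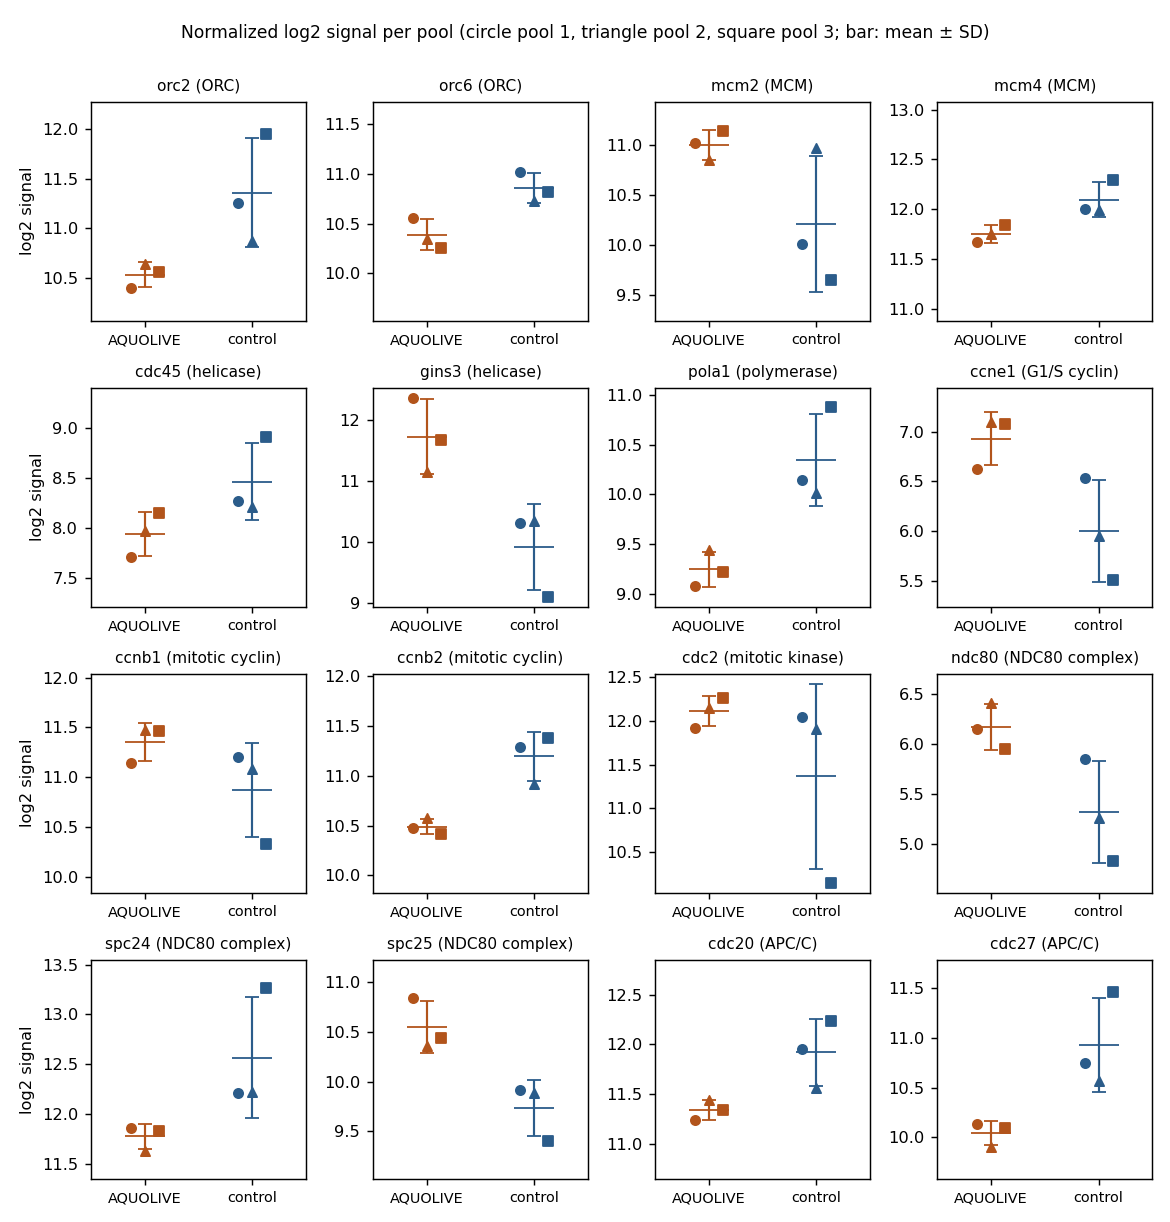
Normalized log2 signal of 16 genes in each pool (circle pool 1, triangle pool 2, square pool 3) with the mean and SD of each diet (n = 3), AQUOLIVE® at the left of control; every panel has its own vertical scale. gins3, spc25 and ndc80 are higher in every AQUOLIVE® pool, and orc2, pola1, ccnb2, spc24 and cdc27 are lower in every AQUOLIVE® pool.

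The 2 largest negative differences in the set belonged to spots in the low center of AQUOLIVE® pools 1 and 3. rfc2, a subunit of the clamp loader, had 2.54, 10.97 and 2.86 in AQUOLIVE® pools and 11.13, 10.26 and 11.79 in control pools, and cdk9, a kinase of transcription elongation, had 4.81, 9.79 and 2.87 in AQUOLIVE® pools and 9.82, 8.76 and 9.63 in control pools. AQUOLIVE® pool 2, which has no low center, lay among the control pools in both, and both genes were well above background on 1 AQUOLIVE® array and 3 control arrays. As processed, the log2 FC was -5.61 for rfc2 and -3.58 for cdk9 (limma adjusted p = 0.265 and 0.311). With the spots of uneven blocks left out, which leaves AQUOLIVE® pool 2 alone in its diet, it was 0.27 for rfc2 and 0.39 for cdk9. For rfc2 this setting also left out control pool 3, whose block median was 0.901. Control pool 2 was kept for both genes, although its block medians were -0.707 for rfc2 and -0.708 for cdk9. With block medians subtracted the log2 FC was -2.19 for rfc2 and -1.64 for cdk9, and AQUOLIVE® pools 1 and 3 were still the lowest.

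bub3, a spindle checkpoint gene, and pold1, the catalytic subunit of polymerase delta, have their spots in column 51, next to those blocks. bub3 had 3.00, 5.59 and 3.20 in AQUOLIVE® pools and 6.25, 5.18 and 6.45 in control pools, and was well above background on 1 AQUOLIVE® array and 3 control arrays, so its differences are not exact. pold1 had 8.67, 10.06 and 8.52 in AQUOLIVE® pools and 10.10, 9.70 and 11.02 in control pools. In both, AQUOLIVE® pools 1 and 3 were low and pool 2 lay among the control pools. The block median there was -0.616 and -0.717 for bub3 and -0.376 and -0.626 for pold1 on AQUOLIVE® pools 1 and 3, and with block medians subtracted the log2 FC was -1.52 in place of -2.03 for bub3 and -0.78 in place of -1.19 for pold1.

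**Figure D5:**
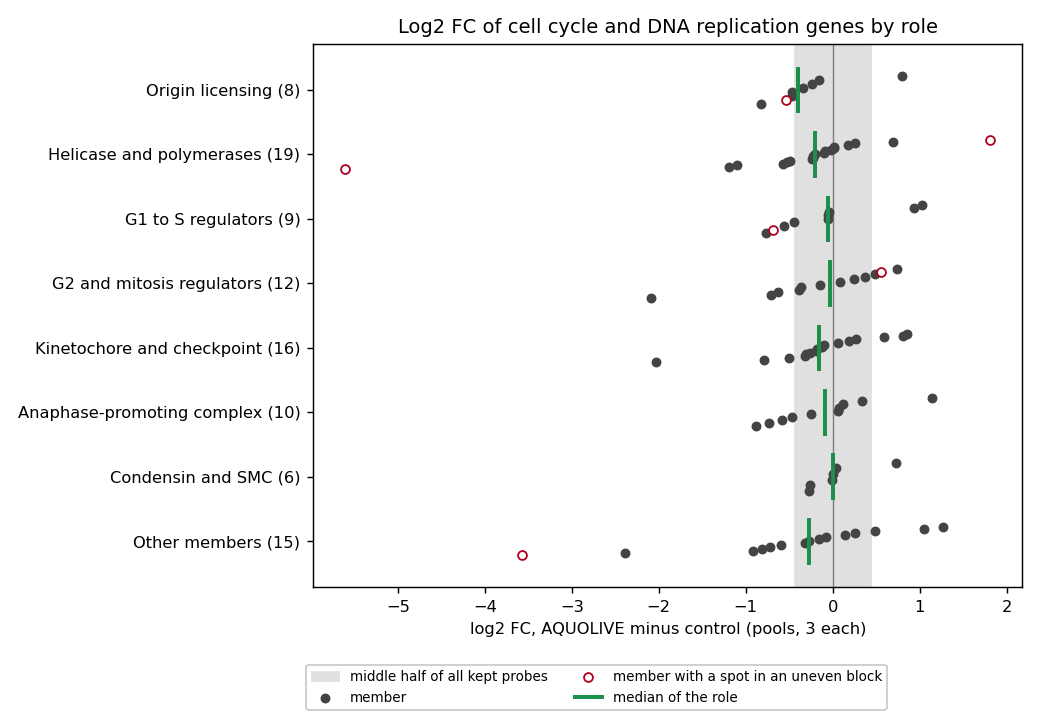
Log2 FC (AQUOLIVE® minus control, horizontal axis) of the 95 kept genes by role, with the number of genes in parentheses; the green line is the median of a role and the gray band the middle 50% of all kept probes. Open red circles are genes with a spot in an uneven block on at least 1 array, among them rfc2 at -5.61 and gins3 at 1.81; origin licensing has the lowest median, -0.40.

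The regulators of the entry into S phase held differences of opposite sign. The 9 kept genes had a median log2 FC of -0.06 (-0.36 with block medians subtracted), with 2 positive and 7 negative. Cyclin E (ccne1), the partner of CDK2 at the start of S phase, had 6.62, 7.09 and 7.08 in AQUOLIVE® pools and 6.54, 5.95 and 5.52 in control pools. AQUOLIVE® pool 1 was just above control pool 1 and the others were further apart (log2 FC 0.93 ± 0.32 SE, limma adjusted p = 0.227). ccne1 was above background on 3 AQUOLIVE® and 2 control arrays. With block medians subtracted its difference was 0.68 and the pools overlapped. Cyclin D3 (ccnd3), which binds CDK4 and CDK6 after growth signals, differed in the opposite direction. It had 6.15, 6.76 and 6.42 in AQUOLIVE® pools and 6.99, 7.42 and 7.21 in control pools, without overlap (log2 FC -0.77 ± 0.25 SE, adjusted p = 0.211 in limma). The other D cyclins had negative values too, -0.56 for ccnd2 and -0.45 for ccnd1, whose control pool 2 spot was an outlier and was left out. The kinases did not differ beyond their spread, with -0.04 for cdk2 and -0.06 for cdk6. With block medians subtracted these were -0.36 and -0.31, and the pools of both overlapped. e2f1 was not kept, being above background on 1 AQUOLIVE® array and 0 control arrays.

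The mitotic cyclins were also divided. ccnb2 had 10.48, 10.57 and 10.42 in AQUOLIVE® pools and 11.29, 10.92 and 11.38 in control pools, with 0.35 log2 units between the nearest pools (log2 FC -0.71 ± 0.22 SE, limma adjusted p = 0.196, and -0.47 with block medians subtracted). ccnb1, which activates the same kinase, had 11.14, 11.47 and 11.46 in AQUOLIVE® pools and 11.20, 11.09 and 10.33 in control pools, overlapping (log2 FC 0.48, adjusted p = 0.404 in limma). With block medians subtracted the ccnb1 difference was 0.75 and the pools did not overlap. ccnb3 (-0.36) and ccna2 (-0.38) were lower without overlap. The kinase itself, cdc2 (also called CDK1), had 11.93, 12.15 and 12.26 in AQUOLIVE® pools and 12.05, 11.91 and 10.15 in control pools. Its log2 FC of 0.74 rested on control pool 3, since control pools 1 and 2 lay among or near the AQUOLIVE® pools. The block of the cdc2 spot had a median of -0.717 on control pool 3. With block medians subtracted that pool was at 10.86, still the lowest, and the log2 FC was 0.50.

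Over the 12 kept genes of this role 6 were positive and 6 negative, with a median of -0.03. The lowest, the phosphatase gene cdc14ab, had 2.87, 4.62 and 3.67 in AQUOLIVE® pools and 4.92, 5.93 and 6.58 in control pools, but was well above background on only 1 AQUOLIVE® and 2 control arrays (log2 FC -2.09, adjusted p = 0.175 in limma). Of the mitotic kinase aurka the values were 7.42, 7.87 and 8.01 in AQUOLIVE® pools and 7.00, 6.63 and 8.02 in control pools. Control pool 3, whose spot lies in a high block, was the exception among the control pools; without it the log2 FC was 0.95 in place of 0.55 (adjusted p = 0.212 in limma).

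At the kinetochore, subunits of a single complex differed in sign. NDC80, SPC24, SPC25 and NUF2 form the rod that ties the kinetochore to microtubules, and the first 3 had a probe by symbol. spc25 had 10.84, 10.36 and 10.43 in AQUOLIVE® pools and 9.91, 9.88 and 9.40 in control pools (log2 FC 0.81 ± 0.25 SE, limma adjusted p = 0.2). ndc80 had 6.15, 6.41 and 5.95 in AQUOLIVE® pools and 5.85, 5.26 and 4.83 in control pools (log2 FC 0.86 ± 0.32 SE, adjusted p = 0.247 in limma). Both were higher in every AQUOLIVE® pool, ndc80 narrowly and with 1 control array not above background.

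spc24, with 11.86, 11.63 and 11.83 in AQUOLIVE® pools and 12.21, 12.22 and 13.27 in control pools, was lower in every AQUOLIVE® pool (log2 FC -0.79 ± 0.34 SE, limma adjusted p = 0.285). Control pool 3 set much of this size, as the log2 FC was -0.43 without it. The 3 signs stayed the same with block medians subtracted, at 0.62 for spc25, 0.83 for ndc80 and -0.63 for spc24. The checkpoint kinase bub1 had a log2 FC of -0.32 with overlapping pools, and of -0.04 without control pool 3. With block medians subtracted the bub1 difference was -0.58, lower without overlap. Of the 16 kept genes of this role 6 were positive and 10 negative with a median of -0.15, and the centromere protein (cenp) genes lay between -0.51 (cenpp) and 0.58 (cenps).

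Of the APC/C, the ubiquitin ligase whose activity ends mitosis, 10 genes were kept, 5 positive and 5 negative, with a median of -0.09 (-0.21 with block medians subtracted). cdc27, one of its scaffold subunits, had 10.13, 9.90 and 10.09 in AQUOLIVE® pools and 10.75, 10.57 and 11.46 in control pools, without overlap (log2 FC -0.89 ± 0.29 SE, limma adjusted p = 0.21). cdc20, the activator of the complex in early mitosis, had 11.24, 11.44 and 11.34 in AQUOLIVE® pools and 11.95, 11.56 and 12.24 in control pools, a gap of 0.12 log2 units (log2 FC -0.58 ± 0.24 SE, adjusted p = 0.281 in limma). With block medians subtracted the cdc20 difference was -0.34 and control pool 2 lay among the AQUOLIVE® pools. The later activator fzr1b had overlapping pools and a log2 FC of 0.07. Among the other subunits anapc7 was lower without overlap (-0.74, and -0.42 with block medians subtracted) and cdc16 (0.34) and cdc26 (1.15) were higher without overlap, cdc26 with control pool 3 lowest at 7.86.

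The condensin and SMC genes, which compact and hold chromosomes, showed the smallest differences of the 8 roles, with a median absolute log2 FC of 0.15 and a median of 0.00 over 6 kept genes. smc1a, the cohesin subunit, had 11.15, 11.26 and 11.20 in AQUOLIVE® pools and 11.47, 11.51 and 11.43 in control pools; its groups were tight and separate, yet the log2 FC of -0.27 had an adjusted p of 0.45 in limma. ncapg, a condensin subunit, differed by 0.01. smc6, of the SMC5 and SMC6 repair complex, had 9.36, 9.37 and 9.55 in AQUOLIVE® pools and 8.94, 9.35 and 7.80 in control pools. AQUOLIVE® pool 1 was barely above control pool 2, and the log2 FC of 0.73 (adjusted p = 0.377 in limma) was set largely by control pool 3, without which it was 0.28.

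The symbol rule also took in 15 kept genes that share a symbol stem and act mostly outside the core cycle, with 5 positive, 10 negative and a median of -0.27. cdc40, a splicing factor, had 10.51, 10.69 and 10.58 in AQUOLIVE® pools and 10.96, 11.20 and 12.07 in control pools, without overlap (log2 FC -0.82 ± 0.33 SE, limma adjusted p = 0.269, and -0.48 without control pool 3). mad2l2, a DNA repair gene, had 2.63, 4.50 and 3.52 in AQUOLIVE® pools and 4.94, 7.65 and 5.23 in control pools, and was well above background on 1 AQUOLIVE® and 2 control arrays (log2 FC -2.39, adjusted p = 0.227 in limma). In this group 6 of 15 genes were lower without overlap, against 15% of all probes.

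Other genes of the pathway, which the symbol rule left out, were described from a separate list. A probe was found by symbol for 39 of its 92 genes for replication, mitosis and nucleotide supply. Of 39 kept probes 15 were positive and 24 negative, with a median of -0.15, and 0 passed an adjusted p of 0.05 in limma. At an unadjusted p under 0.05 in limma, 5 were higher, against 9.56% of all probes, and 5 lower, against 8.59%. The smallest adjusted p was 0.0890 for rfwd3, a ubiquitin ligase of the replication stress response, with 7.58, 7.14 and 8.41 in AQUOLIVE® pools and 5.40, 4.55 and 4.83 in control pools (log2 FC 2.79). The control pools were well below the AQUOLIVE® pools, and 1 of the 3 control arrays was above background. Of the 38 with a value on all 6 arrays, 8 were higher without overlap (14.7% of all probes) and 10 lower (15% of all probes). The higher genes included ube2s (0.91), an APC/C partner enzyme, which was also above background on only 1 of the 3 control arrays. The lower ones included cdca3 (-0.88), kif15 (-0.68) and pole, the catalytic subunit of the leading strand polymerase (-0.59). For brakes and switches of the cycle, such as rb1, cdkn1a and myc, 17 of 31 listed genes had a probe. Of 17 kept probes 8 were positive and 9 negative with a median of -0.07, and none of the 17 was without overlap.

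Markers of the cell types of the HK were measured where a probe was found by symbol. This held for 8 of 21 listed erythroid, 10 of 22 myeloid, 6 of 22 lymphoid, 5 of 10 progenitor and 9 of 16 interrenal and chromaffin genes. Of the probes found, 9 of 9 erythroid, 9 of 10 myeloid, 8 of 9 lymphoid, 4 of 6 progenitor and 6 of 9 interrenal and chromaffin probes were kept. In whole HK fewer cells of a type and less RNA per cell cannot be told apart. The erythroid probes had a median log2 FC of 0.32 (6 of 9 positive) and the myeloid probes of -0.24 (2 of 9 positive), with 0 of either list past an adjusted p of 0.05. Their summed signals relative to the mean over arrays were 0.935 to 1.11 in AQUOLIVE® pools and 0.876 to 1.13 in control pools for the erythroid list, and 0.777 to 1.13 in AQUOLIVE® pools and 0.973 to 1.13 in control pools for the myeloid list, overlapping in both. The interrenal and chromaffin list, from hormone cells of the same organ, ranged from 0.64 to 1.74 in AQUOLIVE® pools and 0.383 to 1.41 in control pools, and the lymphoid list from 0.969 to 1.08 in AQUOLIVE® pools and 0.602 to 1.26 in control pools. Control pool 3, the highest for the cell cycle genes, was the lowest pool in both of these sums and in the erythroid sum (0.876). It was not the lowest in the myeloid or progenitor sums. The progenitor sums did not overlap, at 0.928 to 0.938 in AQUOLIVE® pools and 1.04 to 1.11 in control pools. Of the 4 progenitor probes the brightest, fli1, was lower without overlap (log2 FC -0.44). The other 3 were positive, lmo2 without overlap (0.44), and the progenitor median log2 FC was 0.19. Only probes with a value on all 6 arrays were summed, 7 of 9 kept myeloid and 4 of 6 kept interrenal and chromaffin probes. Of those 4, fdx1b was at 9.70 to 12.06 and nr5a1b, pnmt and th at 3.96 to 6.38, so fdx1b set that sum. The bright star and hsd3b1 were left out. Control pool 3 was lowest in star (14.58) but highest of the control pools in hsd3b1 (15.40). The part of these cell types in the difference of the cell cycle genes was not tested.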

How the data were processed

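The authors hybridized pooled HK RNA, scanned the slides and deposited spot intensity values from Feature Extraction (10.7.3.1 per the file headers), with flags; the deposited log2 values equal the log2 of the background-subtracted intensity (tolerance 1e-08), unscaled. The methods name Lowess normalization and an unpaired test, whose output was not used.

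Here processed signals were put on the log2 scale, outlier spots were dropped, spots of a probe were averaged and a probe was kept if 3 or more of 6 arrays had it well above background. Arrays were normalized with a robust loess (span 0.3, 4 iterations) of their log2 ratio to the control arrays' mean, so values are relative within an array. Diets were compared with limma 3.58.1 in R 4.3.3 (lmFit and eBayes, two-sided, Benjamini-Hochberg over all kept probes); the fit was tested on simulated data. Probes were named through unversioned RefSeq accessions in the Ssal_v3.1 gene table: of 42386 probes, 40933 have an accession, 25641 were found and 8155 have a symbol. Salmon gene copies without a symbol, and near-identical copies that a probe may share, were not resolved. Block medians are over kept probes of 14 rows by 5 columns; the reference median of a probe left out arrays 1 or more log2 units off in a first pass.

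Members, roles and lists were chosen with earlier results of these data known. Genes described are 1) a fixed set of core cycle genes, 2) the 2 probes with the smallest p in each role, 3) the 5 brightest members and 4) any past the adjusted threshold (33 genes in all); other genes were named after their values were seen. Alternatives were 75th percentile, quantile, loess to all 6 arrays, normexp (offset 50, on median signals), the deposited values, other filters, outliers kept, a replicate block and leaving out pools.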

Additional observations from a re-analysis of the deposited data

Results flagged for a closer look

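The spot positions, which no comparison used, held a signal that the even arrays lacked. In the center of the array the lowest block median was -4.83 on AQUOLIVE® pool 1 and -5.5 on AQUOLIVE® pool 3, against -0.0506 on AQUOLIVE® pool 2 and -0.0825, -0.787 and -0.133 on control pools 1, 2 and 3 in the same blocks. Among the kept cell cycle genes rfc2 and cdk9 lie there, with differences of -5.61 and -3.58. These were 0.27 and 0.39 with the spots of uneven blocks left out, and -2.19 and -1.64 with block medians subtracted. Leaving those spots out keeps AQUOLIVE® pool 2 alone in its diet, and for rfc2 it also drops control pool 3. When AQUOLIVE® pool 2, the even array of its diet, was left out of the fit, rfc2 became the 1 member past an adjusted p of 0.05 in limma. The cause of the low center was not tested.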

How the results depend on the processing

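In the settings run, the median log2 FC of the members stayed negative, between -0.22 with the deposited values and -0.13 with normexp, uneven blocks left out or block medians subtracted, and between -0.18 and -0.076 when 1 pool was left out. Members past an adjusted p of 0.05 were 0 everywhere, except 1 without AQUOLIVE® pool 2. At an unadjusted p, members numbered 6 higher and 11 lower as reported, 4 higher and 4 lower with normexp, 2 higher and 2 lower with the deposited values, 3 higher and 12 lower with the methods' test, and 2 to 7 higher and 2 to 10 lower when 1 pool was left out. The shares of all probes, higher and lower, were 9.56% and 8.59% as reported, 6.92% and 3.2% with normexp and 6.43% and 2.52% with the deposited values. They were 8.1% and 7.66% with the methods' test, and 5.09% to 11.4% and 3.9% to 8.86% when 1 pool was left out. With uneven blocks left out 7 members were higher, against 9.64% of all probes, and 10 lower, against 8.42%. With block medians subtracted 8 members were higher, against 10.5% of all probes, and 9 lower, against 8.36%. Over all probes 4 passed the adjusted threshold, against 16 with 75th percentile scaling, 2 with quantile normalization, 7 with normexp, 1 with the deposited values, 30 with the filter of all 6 arrays, 1 without a filter, 47 with block medians subtracted, 0 with the methods' test and 0 to 61 when 1 pool was left out; at an unadjusted p 2613 passed with normexp, 2311 with the deposited values and 2281 to 4755 when 1 pool was left out. With pool number as a replicate block 0 probes and 0 members passed. At an unadjusted p 4 members were then higher, against 9.1% of all probes, and 8 lower, against 7.01%. Deviations of same-numbered pools had r = 0.209, -0.0578 and 0.0273, and those of other pairs ranged from -0.233 to 0.191. With 3 pools a diet these values cannot tell whether the number pairs samples. Signs turned where differences were near 0: ncapg (-0.011 with 75th percentile scaling, -0.0021 with loess to all 6 arrays, -0.0052 with outliers kept, and -0.058 to 0.12 when 1 pool was left out), top2a (0.023 with quantile normalization, 0.21 with normexp, 0.015 with the deposited values, 0.25 with block medians subtracted), mcm7 (0.032 with block medians subtracted) and cdk2 (-0.105 to 0.062 when 1 pool was left out, positive without AQUOLIVE® pool 1 or control pool 3). The 75th percentile scaling set the median of all probes at 0.07. The cause of these changes was not tested. Dim probes, such as cdc14ab and mad2l2, and 3 pools per diet limit what can be told.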

Other observations

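Among genes outside the symbol rule, the segregation and cytokinesis genes racgap1 and kif22 had a log2 FC of -0.73 and -0.49, and spdl1 and stmn1b, a spindle and a microtubule factor, of 0.69 and 0.72, with adjusted p from 0.2 to 0.311 in limma. The 2 survivin copies, which act in the chromosomal passenger complex, were unlike each other. birc5a had 13.07, 13.26 and 13.00 in AQUOLIVE® pools and 13.26, 13.22 and 13.59 in control pools (log2 FC -0.25), and birc5b had 8.37, 7.72 and 7.80 in AQUOLIVE® pools and 6.72, 7.61 and 5.53 in control pools (log2 FC 1.34, adjusted p = 0.267). birc5b was above background on 3 AQUOLIVE® and 2 control arrays. The difference between the copies was not tested. The heme synthesis gene cpox of the erythroid list was higher in every AQUOLIVE® pool, with 10.94, 10.79 and 11.26 in AQUOLIVE® pools and 10.05, 9.99 and 9.98 in control pools (log2 FC 0.99, adjusted p = 0.139 in limma). In the same list hmbsb (log2 FC 0.81) was also higher in every AQUOLIVE® pool. The values of slc4a1b (1.22, above background on only 1 control array), rhag (0.54), hmbsa (0.32) and tspo (0.004) were positive with overlapping pools. The rest had small negative differences, -0.18 for alas2, -0.19 for gata1 and -0.03 for epor. In the myeloid list mpx, the neutrophil peroxidase, was lower, with 13.55, 13.46 and 13.49 in AQUOLIVE® pools and 14.35 and 14.46 in control pools 1 and 2, the spot of control pool 3 being an outlier (log2 FC -0.90, adjusted p = 0.173).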
